A study of Triticum aestivum with 78 samples.

Results

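The alpha-amylase inhibitor transcripts ATI and CIII were followed in developing wheat seed through 5 of the 61115 probe sets tested on the Affymetrix wheat array, which stand for 3 of the 771 genes that its annotation names. The 5 were taken by gene name, not by their levels. ATI was represented by 4 probe sets, Ta.817.1.S1_a_at, Ta.23798.1.S1_s_at, Ta.23798.1.S1_at and Ta.58.1.S1_at, and CIII by 1, Ta.1315.1.S1_at. The samples were 78 arrays of seed collected 5 days after anthesis from field-grown plants of 39 lines of the RL4452 x AC Domain mapping population, with 2 biological replicates of each line and no other treatment. The same field trial held the parents, whose arrays were not analysed here. Seed was taken from spikes tagged when anthers were visible, so each tube pooled the seed of its spikes at 1 nominal age, and the labels give no other measure of stage.

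Alpha-amylase inhibitors are small, disulphide-rich proteins of the starchy endosperm that block alpha-amylases, chiefly those of insects and mammals, and some also inhibit trypsin. They accumulate with the storage proteins while the grain fills, after the endosperm has become cellular, and in people they are known as allergens of baker's asthma. ATI is a name shared by several inhibitor genes. CIII, also listed as Ima1 and WMAI-1, encodes a monomeric inhibitor. RefSeq's gene table for Chinese Spring (assembly v2.1) lists 4 genes with the synonym ATI, and the array's annotation places probe sets on 2 of them. Ta.817.1.S1_a_at was assigned to LOC543281, and the other 3 ATI probe sets to LOC543286. These 2 genes lie next to each other on the same chromosome, with 0 protein-coding genes between them, and CIII (LOC542981) lies on another chromosome. Ta.23798.1.S1_s_at and Ta.23798.1.S1_at were designed on the same sequence cluster, and the suffix _s marks probes that match more than 1 transcript. Wheat is hexaploid and the inhibitors form a multigene family, so the gene assignment of each probe set is uncertain where copies are near-identical.

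Levels are log2 of the deposited intensities, which had been summarized per probe set by RMA. The median over arrays ran from 32.1 to 36.4 intensity units, and the mean level of all probe sets had a median of 5.07 log2 units. Levels near or under 5.07 were not shown to exceed background. Some arrays stood apart over the whole array. H8 replicate 2 and F36 replicate 1 had the lowest scores on the first principal component, −84.5 and −66.3, and F36 replicate 2 had 14.4. The highest scores were 69.8 on G30 replicate 2 and 60.3 on H10 replicate 2. Over the probe sets that differed between lines, 60 of 78 arrays were most like the other array of their line. These probe sets were picked on the same arrays, which favours agreement of replicates, so the count is no independent measure of it. In 3 lines, G30, G13 and H9, the replicate arrays correlated below 0.1. G30 replicate 1 was nearest to G13 replicate 2 and G30 replicate 2 to G13 replicate 1. Values of the arrays labelled G30, G13 and H9 therefore hold for those labels only. The arrays of F82 correlated at 0.17 and neither was nearest to the other. F82 replicate 2 was nearest to F87 replicate 1 (r of 0.49) and F82 replicate 1 to D39 replicate 1 (0.48). Values of the F82 arrays likewise hold for those labels only, and F82 was kept where G13, G30 and H9 were left out. The wash record of D15 replicate 2 named no protocol.

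All 4 ATI probe sets spanned a wide range across the arrays and CIII a narrower one. Ta.817.1.S1_a_at ran from 3.89 to 11.44 log2 units over the 78 arrays with a median of 4.93, and 33 arrays lay above 5.07. Ta.23798.1.S1_s_at ran from 4.56 to 11.74 with a median of 5.88, and 68 arrays lay above 5.07. Ta.23798.1.S1_at ran from 3.92 to 11.22 with a median of 4.64, and it exceeded 5.07 on the fewest arrays of the 5, 26. Ta.58.1.S1_at ran from 4.98 to 11.80 with a median of 6.44, and CIII from 4.64 to 8.62 with a median of 5.37. The highest array was F36 replicate 1 for each of the 5 probe sets. In all of them the median lay close to the low end, so most arrays were low and a minority carried high levels. The SD over arrays was 1.48 to 1.64 log2 units at the ATI probe sets and 0.71 at CIII. Levels of different probe sets are not compared, since their probes differ in brightness.

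Line F36 had the highest mean at all 5 probe sets. At Ta.817.1.S1_a_at it had 11.44 in replicate 1 and 8.30 in replicate 2, a mean of 9.87 ± 2.22 (SD, n = 2, as for all line means). F87 followed with 8.35 and 9.16 (8.75 ± 0.57), then F44 with 7.58 and 8.74 (8.16 ± 0.82). In these 3 lines both arrays were high. D15 had 8.31 and 6.58, B10 6.50 and 8.15, and G30 6.97 and 6.64, so these lines were raised on both arrays too. A different pattern was seen in H5, with 5.04 in replicate 1 and 9.30 in replicate 2, in F82, with 4.77 and 9.28, and in C10, with 4.49 and 8.23. There 1 array was among the highest of all and the other lay close to the median of 4.93 or under it. The low end of the order held C25 (4.14 and 4.12), A77 (4.14 and 4.07) and B33 (3.98 and 4.18), whose arrays were nearly equal and below 5.07.

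The other ATI probe sets gave nearly the same order. Ta.58.1.S1_at had 10.63 ± 1.65 in F36, 10.32 ± 0.14 in F87, 9.40 ± 0.55 in F44 and 9.38 ± 0.77 in D15, and its lowest lines were A35 (5.34 ± 0.27), A81 (5.26 ± 0.39) and DH91 (5.23 ± 0.03). At Ta.23798.1.S1_s_at F36 had 10.38 ± 1.92, F87 9.77 ± 0.23 and D15 8.80 ± 1.04, against 4.81 ± 0.16 in B33. At Ta.23798.1.S1_at F36 had 9.61 ± 2.28, F87 8.61 ± 0.44 and F44 7.42 ± 1.33, against 4.12 ± 0.28 in F29. CIII had F36 (7.63 ± 1.41), F44 (6.73 ± 0.63) and F87 (6.65 ± 0.30) at the top and C25 (4.93 ± 0.07), A77 (4.91 ± 0.05) and A35 (4.88 ± 0.33) at the bottom. Gaps between neighbours in this order were set against the residual SD of the fit. Of the 38 pairs of neighbouring line means, the gap exceeded 1 residual SD of the fit in 1 pair at Ta.817.1.S1_a_at (F36 over F87, 1.12), in 2 at Ta.23798.1.S1_at (the larger F87 over F44, 1.19) and in 1 at CIII (F36 over F44, 0.90). At Ta.58.1.S1_at and Ta.23798.1.S1_s_at it did so in 0 pairs. All other neighbours in the order lay within that spread.

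**Figure D1:**
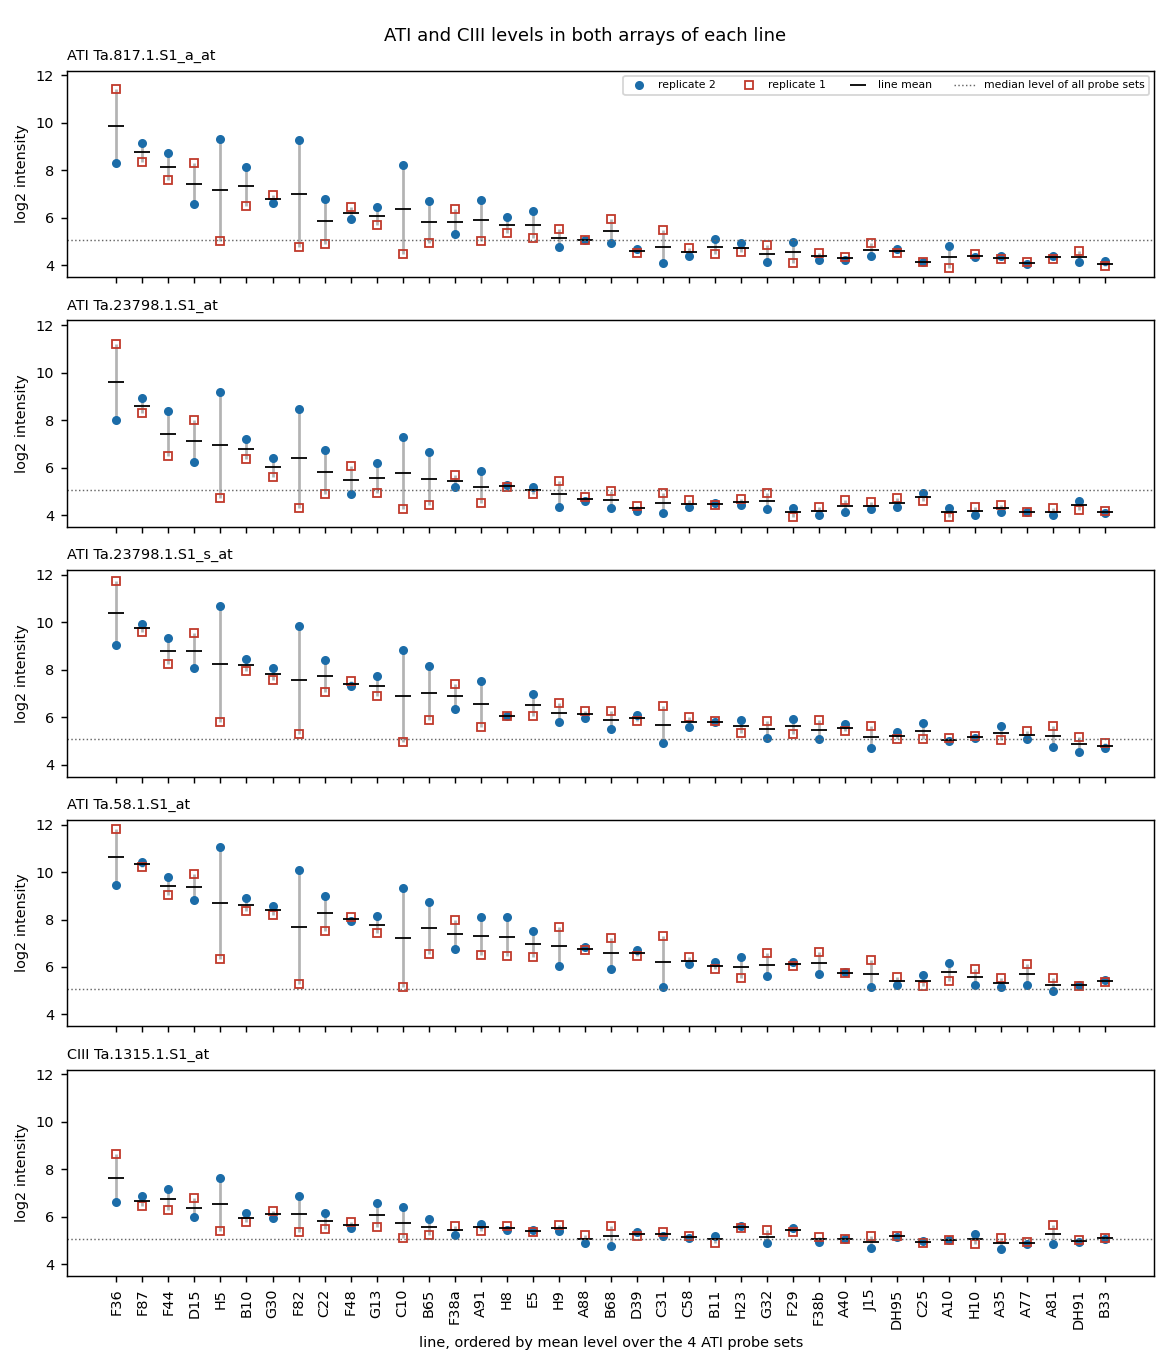
Log2 intensity of the 5 probe sets (1 panel each) in the 39 lines, with replicate 2 as filled circles, replicate 1 as open squares, a grey bar joining them and a dash at the line mean. Lines run from the highest to the lowest mean over the 4 ATI probe sets, the dotted line marks 5.07, the median over all probe sets. The arrays of H5, F82 and C10 lie far apart in each ATI panel, 1 high and 1 low.

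The first comparison asked whether ATI and CIII differed between lines by more than between replicate arrays of a line. All 5 probe sets had a genotype effect in limma's moderated F test, where 6.69% of all probe sets did. The adjusted p was 0.00106 for Ta.817.1.S1_a_at, 0.00151 for Ta.23798.1.S1_s_at, 0.00242 for Ta.23798.1.S1_at, 0.00208 for Ta.58.1.S1_at and 0.00415 for CIII (limma, Benjamini-Hochberg over 61115 probe sets). The 5 are not 5 separate effects, because their levels were highly correlated over the arrays. The test assumes 1 spread for all lines, whereas the arrays of high lines lay farther apart than those of low lines. Seed is a mixture of tissues, so fewer cells that express these genes and less RNA in each cell cannot be told apart.

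The variance was split almost evenly between lines and replicates. Between lines lay 54.4% of the variance of Ta.817.1.S1_a_at (95% F-based interval 28.2 to 73.1%). For Ta.23798.1.S1_s_at it was 53.1% (26.6 to 72.3%), for Ta.23798.1.S1_at 51.5% (24.4 to 71.2%), for Ta.58.1.S1_at 52.0% (25.1 to 71.5%) and for CIII 49.8% (22.3 to 70.0%). These intervals overlap almost fully, so no order among the 5 shares can be given. Without the lines labelled G13, G30 and H9 the shares were 50.4 to 54.0%. The median share was 4.54% over all probe sets and 9.03% over those with a mean above 5.07. Between 1681 and 2222 probe sets had a larger share than the individual members. In log2 units the SD between lines was 1.18 and the SD between replicates 1.08 at Ta.817.1.S1_a_at, and both were 0.50 at CIII. CIII thus varied over a smaller range with a like division of its variance. Replicate 2 and replicate 1 values of the 39 lines correlated with r from 0.49 at CIII to 0.56 at Ta.817.1.S1_a_at, against a median r of 0.10 over all probe sets. These correlations are descriptions over 39 lines, in which a few lines weigh heavily.

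**Figure D2:**
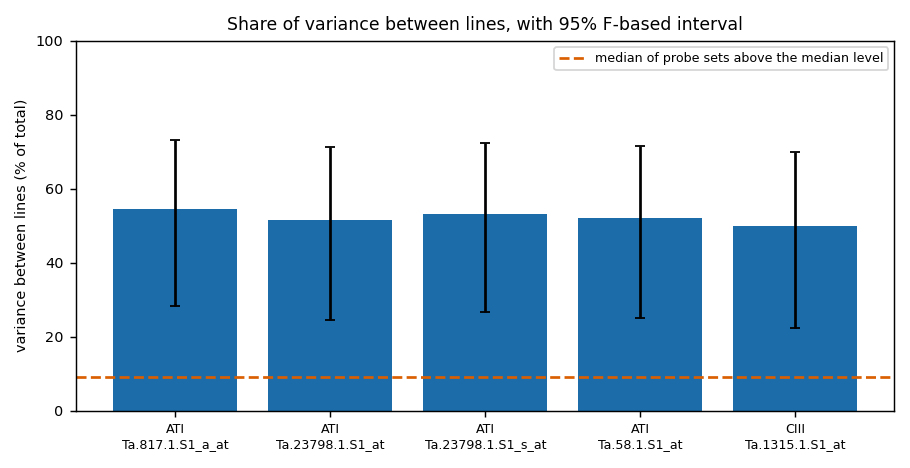
Share of the total variance of log2 intensity that lay between the 39 lines, in percent, for each probe set, with the 95% F-based interval as error bar. The shares lie between 49.8 and 54.4%, and the dashed line at 9.03% is the median of probe sets with a mean above 5.07.

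A small number of lines supplied most of the spread between replicates. At all 5 probe sets the same 4 lines, F36, H5, F82 and C10, gave the largest squared differences between their arrays. They held 68.8% of the within-line sum of squares at Ta.817.1.S1_a_at, 71.5% at Ta.23798.1.S1_s_at, 68.4% at Ta.23798.1.S1_at, 66.9% at Ta.58.1.S1_at and 65.8% at CIII. H5 differed by 4.86 log2 units between replicate 2 (10.67) and replicate 1 (5.81) at Ta.23798.1.S1_s_at, the widest gap of the 4 ATI probe sets. At CIII the H5 arrays had 7.65 and 5.41. F36 ran the other way, with replicate 1 the higher array at all 5. In most lines the arrays were close: their median distance was 0.73 log2 units at Ta.817.1.S1_a_at, 0.48 at Ta.23798.1.S1_at and 0.32 at CIII. The arrays lay within 1 log2 unit of each other in 25 of 39 lines at Ta.817.1.S1_a_at, in 24 at Ta.58.1.S1_at and in 34 at CIII. Of the single arrays, leaving out F36 replicate 1 gave the lowest share of variance between lines at each probe set, 45.2 to 49.7%. Without both arrays of F36 the share was lower still, 42.3 to 47.7%. Leaving out F82 replicate 1 at Ta.817.1.S1_a_at, or H5 replicate 1 at the others, gave the highest, 62.0 to 64.5%.

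**Figure D3:**
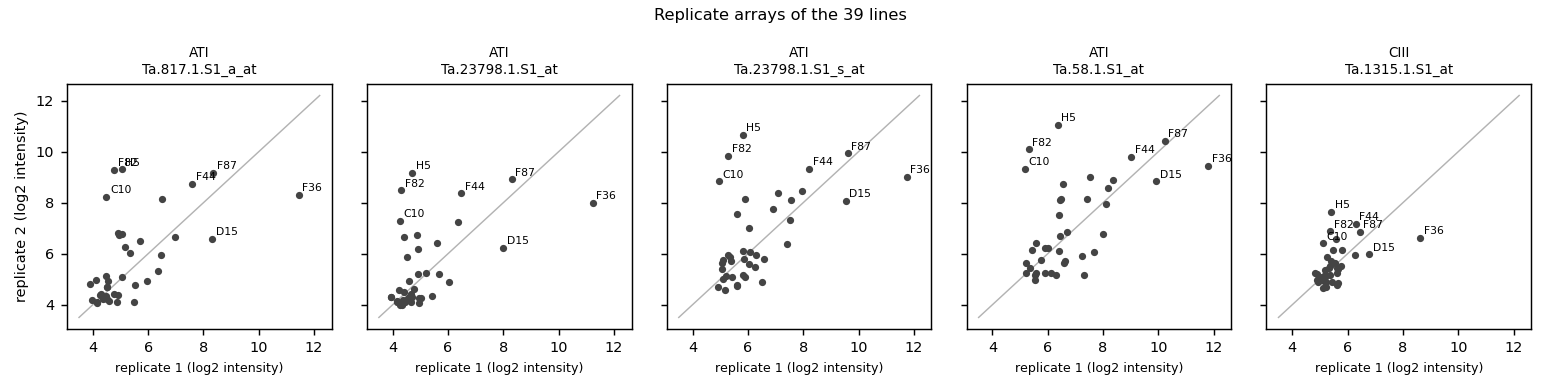
Replicate 2 against replicate 1, both in log2 intensity, for the 39 lines at each probe set, with the line of equality in grey. H5, F82 and C10 lie far above the line, F36 lies below it, and F87 and F44 are high in both replicates.

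The members moved together within lines as well as between them. Across the 78 arrays the 6 pairs of ATI probe sets correlated with r from 0.94 to 0.98, and CIII correlated with them at 0.91 to 0.94. For the 39 differences between replicate 2 and replicate 1 of a line, in which the line itself cancels, r was 0.91 to 0.95 among the ATI probe sets and 0.84 to 0.91 for CIII with ATI. The high values rest in part on F36, H5, F82 and C10. The sign of the replicate difference was the same for Ta.58.1.S1_at and CIII in 32 of 39 lines, and for Ta.817.1.S1_a_at and CIII in 29. Arrays share their hybridisation and normalization, and Ta.23798.1.S1_s_at and Ta.23798.1.S1_at share their source sequence, so these values are descriptions only. Per log2 unit of the mean of the 4 ATI probe sets, CIII was higher by 0.43 log2 units (least squares over 78 arrays).

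Replicate numbers coincided with the 2 project names in the instrument files, and 1 scan day held arrays of both. The next comparison therefore set replicate 2 against replicate 1 over all lines. At the ATI probe sets replicate 2 was higher by 0.28 to 0.39 log2 units on average, and at CIII by 0.06, and none passed in limma with line as a block (adjusted p = 0.204 to 0.721). In that comparison 28.7% of all probe sets passed. Single lines moved these differences: without H5 they were 0.17 at Ta.23798.1.S1_at, 0.20 at Ta.23798.1.S1_s_at and 0.003 at CIII, without F82 0.17 at Ta.58.1.S1_at, and without F36 0.11 at CIII. Ta.817.1.S1_a_at had means of 5.74 in replicate 2 and 5.35 in replicate 1, a difference of 0.39 ± 0.23 (SE). Replicate 2 was the higher array in 22 of 39 lines at this probe set and in 18 of 39 at CIII. With line in the model, scan day had no effect past the threshold at any of the 5 (limma, adjusted p = 0.345 to 0.662). Of all 61115 probe sets 5322 passed for scan day, so the lack of a call was common to most probe sets. On the 10 scan days with 4 or more arrays, levels differed by 2 log2 units or more within 9 days at Ta.58.1.S1_at, Ta.23798.1.S1_s_at and Ta.817.1.S1_a_at, within 7 at Ta.23798.1.S1_at and within 3 at CIII.

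The lines were then set one by one against the mean of the other 38. F36 was higher at all 5 probe sets, where 0.561% of all probe sets were higher in F36. Ta.817.1.S1_a_at had 9.87 in F36 against 5.43 in the other lines, a difference of 4.44 ± 0.74 (SE) or 21.7-fold (limma, adjusted p = 0.000308). CIII had 7.63 in F36 against 5.48 (4.43-fold, adjusted p = 0.000193 by limma). F87 was higher at the 4 ATI probe sets, where 0.17% of all probe sets were higher in F87. Ta.58.1.S1_at had 10.32 in F87 against 6.87 in the others, a 10.9-fold difference (limma, adjusted p = 0.0329). The F87 differences were 9.78-fold to 10.9-fold over the 4 ATI probe sets, with adjusted p of 0.0135 to 0.0329. CIII did not pass in F87, with 6.65 against 5.51 (limma, adjusted p = 0.22), and whether F87 differed more at ATI than at CIII was not tested. No other line passed at any of the 5, and no line was lower past the threshold.

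These line calls rested on few arrays. Without F36 replicate 1 the F36 difference at Ta.817.1.S1_a_at was 2.87 log2 units and at CIII 1.15, and F36 lost its call at all 5 probe sets (limma, adjusted p = 0.284 to 0.659). Without F36 replicate 2 it was 6.005 at Ta.817.1.S1_a_at and 3.14 at CIII, and all 5 calls held. F87 lost its call at all 4 ATI probe sets without either of its arrays, although its differences stayed between 2.88 and 3.76. With scan day in the model F87 lost its call at all 4 as well (4.08 to 4.36, adjusted p = 0.057 to 0.0746 by limma), and F36 lost it at Ta.23798.1.S1_s_at (3.40) and Ta.58.1.S1_at (3.44). The lines F38a and F38b share the first part of their name. Over the probe sets that differed between lines, each array of either was nearest to an array of the other (r of 0.53 to 0.56). The replicates correlated at 0.47 in F38a and 0.49 in F38b, so these arrays did not separate by label. Ta.817.1.S1_a_at had 5.84 in F38a and 4.38 in F38b, a difference of 1.47 ± 1.03 (SE) that did not pass (limma, adjusted p = 1.00), and CIII differed by 0.38 ± 0.48.

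The final comparison was the order of onset. For each probe set an array counted as past onset when its level was at least 2 log2 units (4-fold) above that probe set's own 10th percentile over the arrays. This order is one across arrays of a single nominal age, not a measured time course. Ta.58.1.S1_at was past onset on 28 of 78 arrays, Ta.23798.1.S1_s_at on 23, Ta.817.1.S1_a_at on 22, Ta.23798.1.S1_at on 17 and CIII on 3. The arrays formed a nearly nested series. On 50 arrays none of the 5 was past onset, on 4 only Ta.58.1.S1_at, on 14 all ATI probe sets without CIII, and on 3 all 5. Of the 28 arrays with any probe set past onset, 27 followed the order of these counts. Arrays with all 5 past onset follow any order, and of the 25 with only some past onset 24 did. The order was read from these same arrays and the probe sets were highly correlated. The number that followed it is therefore a description and no test of a series. The exception was E5 replicate 2, where Ta.817.1.S1_a_at lay 2.13 log2 units above its 10th percentile and Ta.23798.1.S1_s_at 1.95. Ta.23798.1.S1_s_at and Ta.817.1.S1_a_at cannot be ordered from this, with 2 arrays past onset at the first alone and 1 at the second alone. Without the arrays labelled G13, G30 and H9 the counts were 23, 20, 19, 15 and 3 in the same sequence.

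The pairs describe the same arrays in another way. Ta.58.1.S1_at was past onset on 11 arrays where Ta.23798.1.S1_at was not, and the reverse held on 0, although the annotation assigns both to LOC543286. It was alone on C31 replicate 1, G13 replicate 1, H8 replicate 2 and H9 replicate 1. Of these, H8 replicate 2 had the lowest first component score, and the replicates of G13 and of H9 disagreed. The rise on G13 replicate 1 was 2.17, close to the limit. On C31 replicate 1 Ta.58.1.S1_at lay 2.05 log2 units above its 10th percentile and CIII 0.48. Every array with CIII past onset (F36 replicate 1, H5 replicate 2 and F44 replicate 2) had a rise of at least 4.54 at Ta.58.1.S1_at. F82 replicate 2, at 1.99, and F87 replicate 2, at 1.97, lay just under the CIII limit. F36 replicate 1 had the largest rise at CIII.

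**Figure D4:**
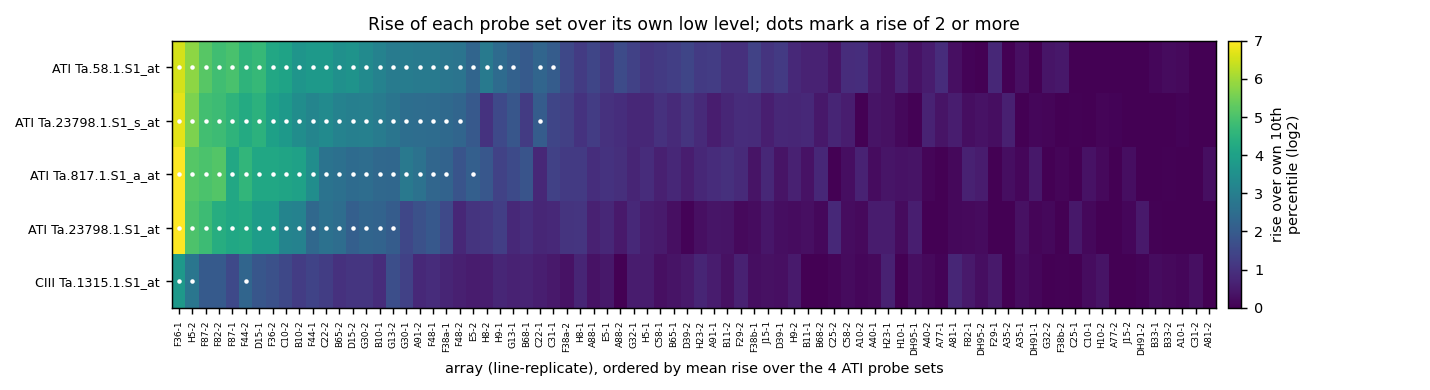
Rise of each probe set over its own 10th percentile (colour, in log2 units) on the 78 arrays, ordered by the mean rise of the 4 ATI probe sets, with white dots where the rise was 2 or more. Dots reach farthest to the right for Ta.58.1.S1_at, on 28 arrays, and are present on 3 arrays for CIII.

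The place of CIII in the order depended on how onset was defined. With a rise of 1 log2 unit the counts were 44 arrays for Ta.58.1.S1_at, 33 for Ta.23798.1.S1_s_at, 31 for Ta.817.1.S1_a_at, 26 for Ta.23798.1.S1_at and 16 for CIII, and with a rise of 3 they were 16, 15, 11, 10 and 1 in the same sequence. CIII was last in both. When the limit was instead the midpoint between each probe set's own 5th and 95th percentile, the counts were 24, 22, 20, 16 and 17, so CIII was level with Ta.23798.1.S1_at. At 25% of that range they were 42, 31, 30, 26 and 39, and CIII came second. The counts of the 4 ATI probe sets kept one sequence under all 5 definitions, but these rank different probes by rises from their own low levels. The 10th percentile was 5.24 at Ta.58.1.S1_at, and it lay under 5.07 at Ta.23798.1.S1_s_at (5.04), Ta.817.1.S1_a_at (4.14), Ta.23798.1.S1_at (4.12) and CIII (4.89). RMA compresses such low levels, so the sequence is a description of the arrays and not shown to be an order of the transcripts. CIII came last only where a fixed rise was asked of it, and its range was the narrowest of the 5.

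**Figure D5:**
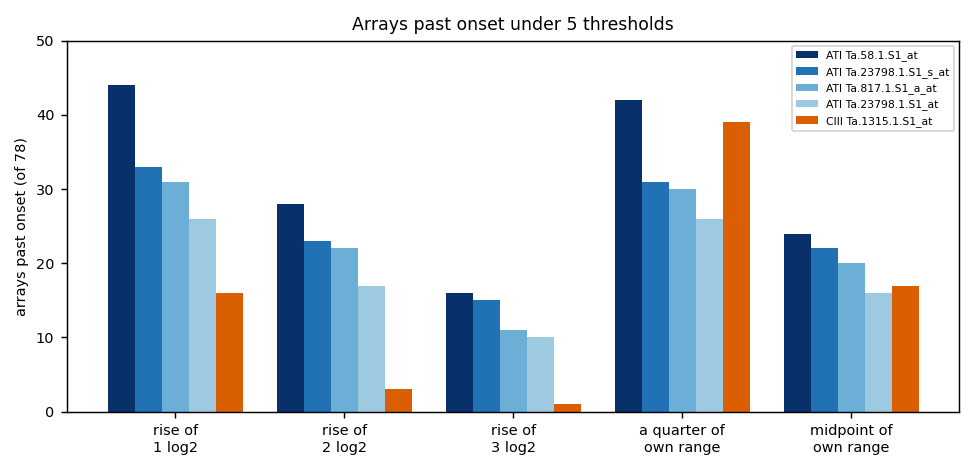
Number of the 78 arrays past onset at each probe set under 5 thresholds, 3 of them a fixed rise in log2 units and 2 a point along the probe set's own range. Ta.58.1.S1_at has the most arrays throughout, and CIII moves from 3 arrays at a rise of 2 to 39 arrays at 25% of its own range.

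Lines differed in how many of their arrays had passed onset. At Ta.58.1.S1_at both arrays were past onset in 9 lines (B10, C22, D15, F36, F44, F48, F87, G13 and G30), 1 array in 10 lines and neither in 20. At Ta.817.1.S1_a_at both arrays were past onset in 6 lines, 1 in 10 and neither in 23, and the arrays of those 23 lines lay between 3.89 and 6.04. At CIII no line had both arrays past onset, and 36 had neither. By replicate, 16 arrays of replicate 2 and 12 of replicate 1 were past onset at Ta.58.1.S1_at, and 14 and 8 at Ta.817.1.S1_a_at.

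Named transcripts were few, since 199 probe sets had a gene name other than a locus number, and the lists below were drawn from the same. Among these, members left out, the pattern most like ATI was that of purothionins, small membrane-active seed proteins linked to defence. Over the 78 arrays the mean of the 4 ATI probe sets correlated at r = 0.98 with Ta.23967.1.S1_x_at of THI1.1, at 0.97 with Ta.115.1.S1_at, at 0.96 with Ta.23967.1.S1_s_at of THI1.1, at 0.96 with Ta.1549.1.S1_at and at 0.94 with Ta.91.1.S1_at of THI1.2. Ta.115.1.S1_at and Ta.1549.1.S1_at have no annotated gene. In all, 35 other probe sets had r of at least 0.9 with ATI, and the median r over all probe sets was 0.00866. CIII was most like Ta.115.1.S1_at (0.95), Ta.23141.2.S1_at (0.94), Ta.69.2.S1_x_at (0.93), Ta.1308.1.S1_x_at of the purothionin gene Pur-A1 (0.93) and Ta.23141.3.S1_x_at (0.93), and 14 other probe sets reached 0.9. All of these probe sets had their highest line mean in F36.

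Other genes of the seed's protein and starch programme were read from lists of gene symbols. Of 5 purothionin probe sets, all 5 had a genotype effect and r of at least 0.5 with ATI (median 0.94), where 6.69% of all probe sets had a genotype effect and 1.08% such an r. Earlier results of these data already showed this group. The 17 storage protein probe sets, which stand for endosperm, had 1 with a genotype effect, Ta.905.2.S1_x_at of the avenin-like gene avnla (limma, adjusted p = 0.0199), and 9 had r of at least 0.5 with ATI (median 0.50). With CIII 11 of the 17 did (median 0.59), where 0.957% of all probe sets did. Of these 17, 4 had a mean above 5.07. Their summed intensity was 9679 on F36 replicate 1 and 2024 on F36 replicate 2, against a median of 1651 over the 78 arrays. F36 replicate 1 was also the highest array for ATI and CIII, so the r values of this list may rest largely on it. The r values without that array were not tested. Of 5 serpin probe sets, for protease inhibitors of the grain, 0 had a genotype effect, and none had a mean above 5.07. The only amylase probe set, Ta.3.1.S1_at of the beta-amylase gene BMY1, had a genotype effect (limma, adjusted p = 0.0212) but r of 0.27 with ATI. The starch list held GBSS, the granule-bound starch synthase, with r of 0.10, and AGP-S, a subunit of ADP-glucose pyrophosphorylase, with r of 0.52. GBSS had a genotype effect and AGP-S did not. A single probe set, of the gene wci, answered to the list of other inhibitors by its letters, with r of 0.68 and no genotype effect (limma, adjusted p = 0.511). Its intensity was 845 on F36 replicate 1 and 95.6 on F36 replicate 2, against a median of 82.6, so this r may likewise rest largely on F36 replicate 1.

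Markers of other parts of the seed were read from a photosynthesis list, for the green outer layers, and a list of histones and tubulins, for dividing cells. Of 34 photosynthesis and 28 histone and tubulin probe sets, 0 had r of 0.5 or more with ATI and 0 had r of −0.5 or less, where 1.08% and 0.659% of all probe sets did, so these counts are near the background. The median r was 0.03 and −0.10, and 10 of the 34 and 28 of the 28 had a mean above 5.07. A genotype effect was found in 1 of the 34 and 0 of the 28.

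The summed intensities of the lists differed between the arrays of the lines that differed most in ATI. The sums are linear, so bright probe sets weigh most in them. The brightest of the storage list, Ta.27777.1.S1_at (mean 10.33 log2 units), had r of 0.009 with ATI. The storage list had 9679 on F36 replicate 1, the highest of all arrays, and 2024 on F36 replicate 2, against a median of 1651 over the 78 arrays. It had 2456 on H5 replicate 2 and 1359 on H5 replicate 1, 2165 and 1443 on those of F82, and 1781 and 1314 on those of C10. In these 4 lines the array with more storage signal was also the one with more ATI. In F87 it was not, with 1757 on replicate 2, which had more ATI, and 2009 on replicate 1.

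The photosynthesis sum was also higher on the array with more ATI in F36 (68028 on replicate 1 and 63629 on replicate 2), H5 (66952 on replicate 2 and 63140 on replicate 1), F82 (70934 and 64149) and C10 (69016 and 61359). The histone and tubulin sum was lower on that array, with 111524 and 112285 in F36, 108113 and 116398 in H5, 122495 and 129534 in F82, and 118372 and 125961 in C10. F87 went the other way in both, with 66969 on replicate 2 and 68849 on replicate 1 for photosynthesis and 124555 and 119177 for histones and tubulins. Over all arrays the photosynthesis sum lay between 55442 and 72073, and the histone and tubulin sum between 102023 and 132573. The brightest photosynthesis probe sets, Ta.24976.1.S1_x_at and TaAffx.128414.1.A1_x_at of rbcl (means 14.65 and 14.64), had r of −0.02 and −0.08 with ATI. The sums therefore do not show a shift across a whole list, and F36, H5, F82 and C10 were chosen for their ATI differences. The part of these lists in the differences of ATI and CIII was not tested.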

How the data were processed

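Seed of 39 lines was measured on 78 Affymetrix wheat arrays, 2 per line. The deposited intensities are linear, and the submitters' processing notes name RMA without a version. By its design, RMA corrects background, quantile-normalizes arrays, summarizes the probes of a set, and compresses low levels. The design had assumed log2 values, so log2 was taken first. Of 61290 probe sets, 111 control and 64 reporter sets were left out. limma 3.58.1 in R 4.3.3 tested the genotype effect (moderated F), each line against the others, and replicate 2 against replicate 1, with Benjamini-Hochberg adjustment over 61115 probe sets and a threshold of 0.05. The share of variance came from one-way variance components. Descriptions and figures used Python 3.11.15 (numpy 2.4.6, scipy 1.17.1, pandas 2.3.3, matplotlib 3.10.9). The limma step was tested on simulated data.

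Of the probe sets, 1273 had a gene symbol and 1272 matched the Chinese Spring RefSeq v2.1 table, used for names and neighbours only. No genome, probe, protein or promoter sequences were used, and the promoter motifs planned were not searched. Scan days came from the instrument files, which held 15 days. The members, the gene lists, the onset rule and the tests were chosen with earlier results of these data known. Genes were named by a rule: the members, the gene lists, and the 5 probe sets most correlated with ATI and with CIII (and the 3 with a gene name). The number of arrays limits precision, and each line had 2 biological replicates per the labels. The main model held line only. Deviations of same-numbered arrays correlated above 0.1 in 410 of 741 pairs of lines, so a fit with the replicate number as a block is given below.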

Additional observations from a re-analysis of the deposited data

How the results depend on the processing

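Precision was limited by 2 arrays per line. All 5 genotype effects kept their call under the 9 alternatives other than leaving out single arrays (scan day as a term, array weights, median centring, a filter on low levels, trended and robust variances, the replicate block, and 3 that left out H8, F36 or G13, G30 and H9, of which the last was chosen after seeing the data), with adjusted p up to 0.0261 (limma), and without any single array, with adjusted p of 3.71e-05 to 0.0122. With the replicate block the adjusted p was 0.000592 for Ta.817.1.S1_a_at, 0.00109 for Ta.23798.1.S1_s_at, 0.00184 for Ta.23798.1.S1_at, 0.00165 for Ta.58.1.S1_at and 0.00409 for CIII, and 5622 probe sets were called against 4088 without it. Deviations of same-numbered arrays correlated above 0.1 in 410 of 741 pairs of lines, with a median r of 0.13 over the pairs. With scan day as a term, F36 lost its call at Ta.23798.1.S1_s_at (3.40 log2 units) and Ta.58.1.S1_at (3.44), and F87 at Ta.817.1.S1_a_at (4.08), Ta.23798.1.S1_s_at (4.25), Ta.23798.1.S1_at (4.12) and Ta.58.1.S1_at (4.36). The F87 differences were larger with that term than without it (3.29 to 3.45), and the cause was not tested. Without replicate 1 and without replicate 2 of F36, its difference was 2.87 and 6.005 at Ta.817.1.S1_a_at, 2.65 and 5.36 at Ta.23798.1.S1_s_at, 2.87 and 6.09 at Ta.23798.1.S1_at, 2.59 and 4.93 at Ta.58.1.S1_at and 1.15 and 3.14 at CIII. Without replicate 2 and without replicate 1 of F87 it was 2.88 and 3.70, 3.21 and 3.54, 3.14 and 3.76, and 3.35 and 3.55 at the 4 ATI probe sets in that sequence. The lone array left was assumed to vary like those of other lines. Arrays past onset numbered 26 at Ta.23798.1.S1_at, 44 at Ta.58.1.S1_at and 16 at CIII with a rise of 1 log2 unit, and 11 at Ta.817.1.S1_a_at, 15 at Ta.23798.1.S1_s_at, 10 at Ta.23798.1.S1_at, 16 at Ta.58.1.S1_at and 1 at CIII with a rise of 3. They numbered 17 at CIII at the midpoint of its range, and 26 at Ta.23798.1.S1_at and 39 at CIII at 25% of the range.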
